A study of Mus musculus with 8 samples.

Results

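The 39 genes described here encode enzymes that remove superoxide and peroxides, the thioredoxin, glutaredoxin and glutathione proteins that keep those enzymes reduced, and the regulators Nfe2l2 and Keap1. They are a list of gene names, looked up among the 43239 distinct names in the tables, and all 39 were found. RNA had been sequenced from quadriceps muscle of 8 female mice aged 6 months, 1 library per mouse: 4 were labelled Mss51 knockout (genotype Mss51-/-, here KO) and 4 labelled wild type (WT). The series title sets the question, the effect of losing Mss51 on glucose handling and metabolism in muscle. How the allele was made, the strain and the litters of the mice are not given in the sources used here, so p-values measure the spread between these 8 mice only.

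Superoxide leaks from the respiratory chain and other oxidases, and superoxide dismutases turn it into hydrogen peroxide. Catalase then breaks down hydrogen peroxide, while glutathione peroxidases and peroxiredoxins reduce peroxides, drawing electrons from NADPH through glutathione or thioredoxin. Many of these enzymes exist in a mitochondrial and a cytosolic form, and the transcription factor NRF2 (gene Nfe2l2), held back by KEAP1, induces a large share of the cytosolic ones; skeletal muscle, which makes peroxide as it contracts, relies on both sets.

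The libraries limited what could be compared. Mss51 was higher, not lower, in every library labelled KO (340, 201, 216 and 207 FPKM in replicates 1 to 4) than in the libraries labelled WT (22.9, 37.0, 27.5 and 24.8 FPKM); FPKM are fragments mapped to a gene, scaled to its length and to the size of the library. The targeted gene thus goes against the labels, the tables give 1 value for its whole locus, and KO and WT, with their replicate numbers, stand below for what the libraries are labelled. KO replicate 1 resembled the libraries labelled WT in the sum of markers of oxidative fibres, slow and fast. Its summed FPKM over 11 markers was 2914, against 6134 to 6732 in the other libraries labelled KO and 2526 to 3125 in the libraries labelled WT. Of these sums, Mb alone held 1838 FPKM in KO replicate 1, 3645 to 4704 in the other KO and 1624 to 1937 in the libraries labelled WT. KO replicate 1 also had the highest sum of erythroid markers (3173 FPKM, against 653 to 1599 in the other KO and 510 to 1334 in the libraries labelled WT). Fast-fibre markers identified the tissue as skeletal muscle, for example Pvalb at 7537 to 15460 FPKM in KO and 10436 to 14730 FPKM in libraries labelled WT, although the fast-fibre genes Myh4, Tnnt3 and Atp2a1 were listed at 0 in 8, 4 and 7 of the 8 libraries. No antioxidant gene was listed at 0 in any library. The files hold no counts, so no counting interval can be given.

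Levels per length spanned about 2 orders of magnitude. Of the 39 genes, 14 averaged at least 100 FPKM over the 8 libraries and 14 averaged under 20 FPKM. The most abundant was Gpx4, the selenoenzyme that reduces lipid peroxides in membranes, at 487 ± 13.9 FPKM in KO and 413 ± 64.3 FPKM in libraries labelled WT (SD, n = 4 each). Txnip, which binds and inhibits thioredoxin, followed at 413 ± 93.1 FPKM in KO and 439 ± 52.8 FPKM in libraries labelled WT. Next came Gpx3, the secreted plasma peroxidase, and Sod1. The lowest were Gclc (4.52 ± 0.274 FPKM in KO, 5.13 ± 0.910 FPKM in WT) and Gss (3.99 ± 0.193 FPKM in KO, 3.90 ± 0.540 FPKM in WT), which carry out the steps of glutathione synthesis. Within a group the spread was small, with a median coefficient of variation of 9.34% over the genes in KO and 9.18% in libraries labelled WT.

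**Figure D1:**
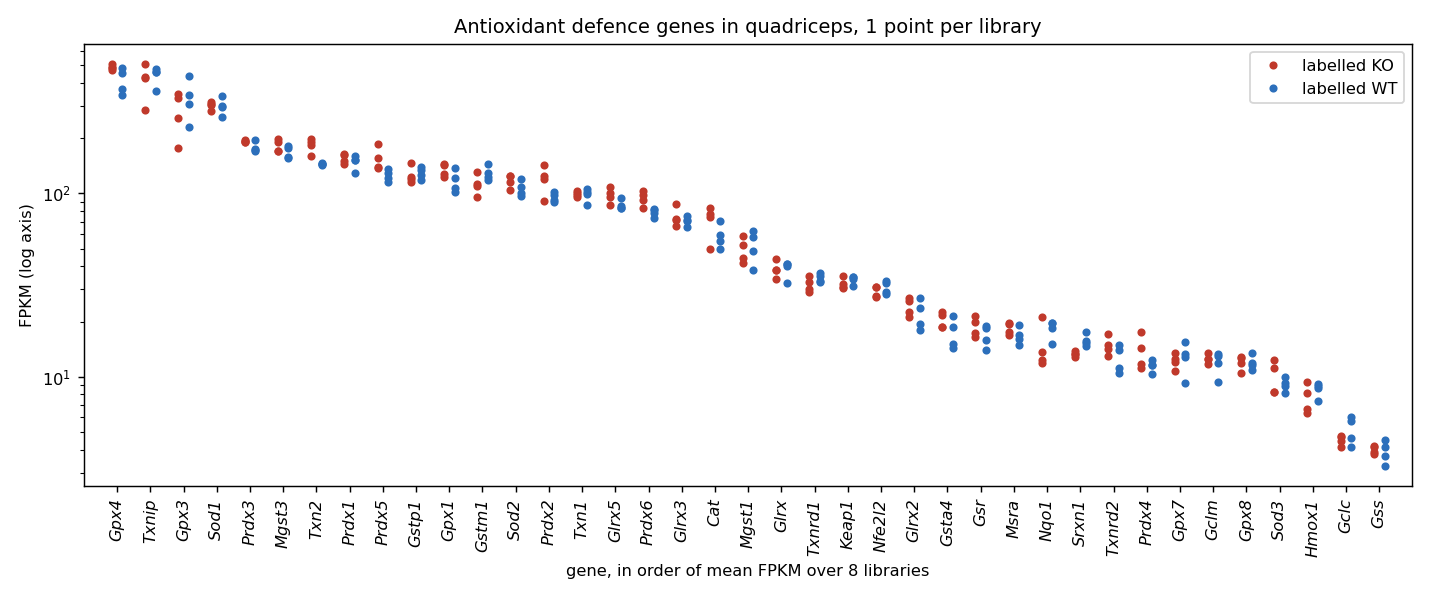
FPKM (log axis) of each of the 39 antioxidant genes in each library, ordered by mean; libraries labelled KO are the left column of points and libraries labelled WT the right for each gene. Gpx4 and Txnip stand highest, Gclc and Gss lowest, and the groups overlap for all but 4 genes.

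No antioxidant gene passed the test between the groups. On log2(FPKM + 0.5), limma called 0 of the 39 at a Benjamini-Hochberg adjusted p under 0.05 over all 11878 genes tested, against a background of 0.0505% of genes called higher and 0% called lower; the smallest adjusted p of the 39 was 0.336. Unadjusted limma p-values under 0.05 were found for 5 genes higher in KO (12.8% of the 39, against 7.5% of all tested genes) and for 1 lower (2.56%, against 2.76%). In 3 genes all libraries labelled KO lay above all libraries labelled WT (7.69%, background 3.89%), namely Txn2, Prdx5 and Prdx6. In 1, Srxn1, they all lay below (2.56%, background 1.61%). This separation depended on scaling. Quantile normalization left 1 gene higher and 1 lower without overlap, as did scaling by the median. Rescaling to an equal sum of named genes left 0 in either direction. Log2 fold changes, KO minus WT, were above 0 in 25 of 39 (64.1%, against 54.4% of all genes), with a median of 0.07 beside 0.02 for all genes, and none exceeded 0.33 in size. Rescaling each library to an equal sum of named genes moved the median of all genes to -0.18 and that of the 39 to -0.14. After that rescaling, 0 of the 39 had an unadjusted p under 0.05. Its base was uneven, as entries lacking a gene name took up between 65.8% and 93.2% of FPKM, depending on the library. Among named genes, Tnnt3 was listed at 0 in 4 libraries and otherwise had 7955 to 8888 FPKM. The rescaled values thus rest on a small and varying part of the signal. Without KO replicate 1, 1 of the 39 passed, Txn2, beside a background of 0.942% called higher and 0.101% called lower. That library was the lowest labelled KO in Txn2, so leaving it out raises the fold change and the pass is no separate evidence. In that fit the groups did not overlap in 5 genes higher in KO (Cat, Prdx2, Prdx5, Prdx6 and Txn2; background 9.34%) and 3 lower (Nqo1, Srxn1 and Gstm1; background 4.52%).

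**Figure D2:**
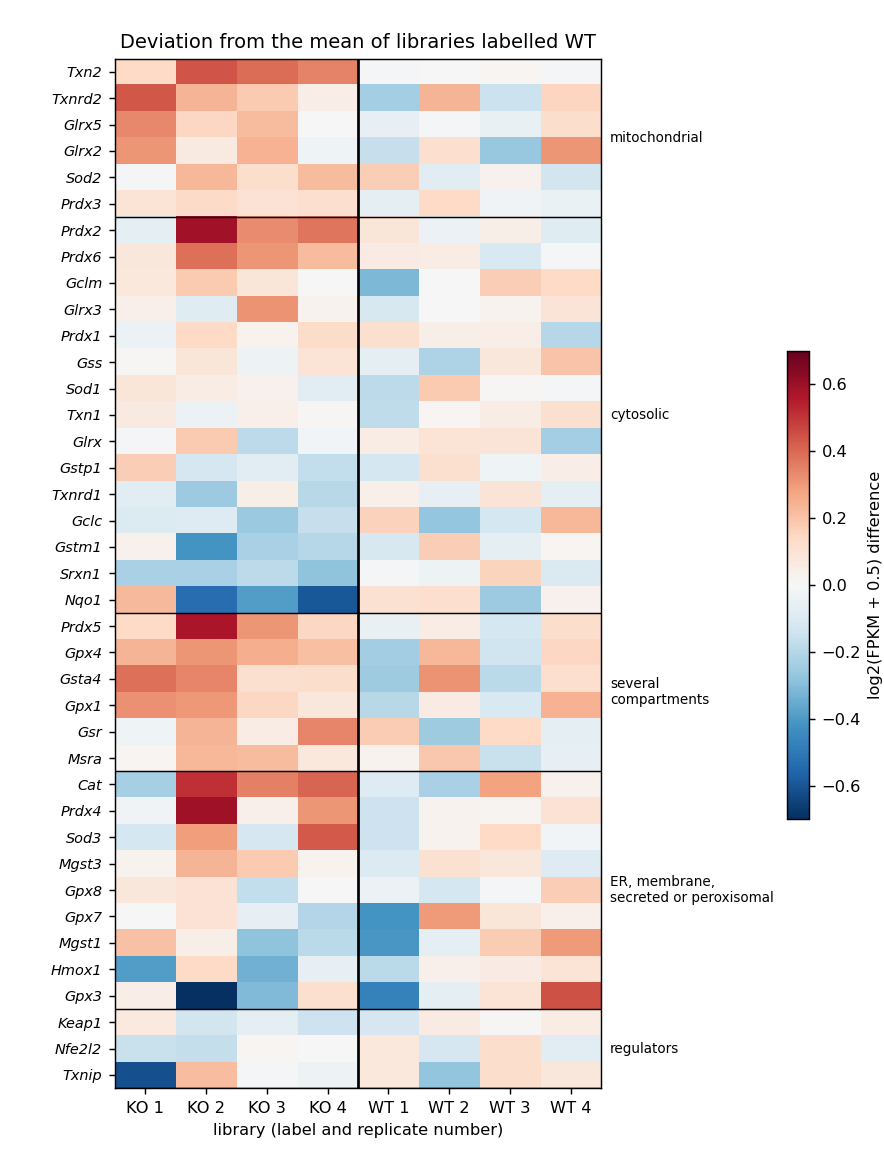
Difference of log2(FPKM + 0.5) from the mean of the libraries labelled WT for each gene (rows, grouped by compartment) in each library (columns, KO left of the line, WT right). Mitochondrial genes are mostly above the WT mean in the libraries labelled KO; KO replicate 1 departs from KO replicates 2 to 4 in Cat, Prdx2, Nqo1 and Gstm1.

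Among the superoxide dismutases, the cytosolic copper-zinc enzyme Sod1 had 316, 309, 304 and 283 FPKM in KO replicates 1 to 4, against 262, 338, 300.3 and 297 FPKM in WT replicates 1 to 4. These ranges overlapped fully, and the log2 fold change was 0.02 (SE 0.09, limma adjusted p = 0.950). The manganese enzyme of the mitochondrial matrix, Sod2, had 105, 125, 115 and 124 FPKM in KO and 119.6, 101, 108 and 97.0 FPKM in libraries labelled WT. KO replicates 1 and 3 lay within the WT range and WT replicates 1 and 3 within the KO range. The fold change was 0.14 (SE 0.09, adjusted p = 0.626). Sod3, the extracellular enzyme, was the lowest of the 3 at 10.0 ± 2.06 FPKM in KO and 9.06 ± 0.773 FPKM in libraries labelled WT. Of the summed FPKM of the dismutases, Sod1 made up 70.4 ± 2.59% in KO and 72.0 ± 3.55% in libraries labelled WT, and Sod2 27.2 ± 2.15% and 25.8 ± 3.55%.

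Catalase and the glutathione peroxidases showed no shared direction. Cat, the peroxisomal enzyme, had 49.6, 83.2, 74.7 and 77.6 FPKM in KO and 54.8, 49.8, 71.0 and 59.6 FPKM in libraries labelled WT. KO replicates 2 to 4 were above every library labelled WT and KO replicate 1 below all of them, so that the log2 fold change was 0.26 (SE 0.17, adjusted p = 0.653) with all libraries and 0.42 (adjusted p = 0.169) without that one. Gpx4 had 482, 506, 488 and 473 FPKM in KO and 346, 481, 371 and 452 FPKM in libraries labelled WT. The libraries labelled KO lay close together, while those labelled WT spread widely. KO replicates 1 to 3 lay above every library labelled WT, and KO replicate 4 was exceeded by WT replicate 2 alone. The fold change was 0.25 (SE 0.11, limma adjusted p = 0.483). Gpx1, found in cytosol and mitochondria, stood at 135 ± 11.05 FPKM in KO and 117 ± 15.98 FPKM in libraries labelled WT (0.21, adjusted p = 0.537). Gpx3 ran from 178 to 348 FPKM in KO and from 231 to 438 FPKM in libraries labelled WT (-0.25, adjusted p = 0.773). Gpx7 and Gpx8, which act in the endoplasmic reticulum, lay between 10.8 and 13.4 FPKM and between 10.51 and 12.8 FPKM in libraries labelled KO, and between 9.20 and 15.5 FPKM and between 10.9 and 13.5 FPKM in libraries labelled WT. Of the summed FPKM of the 5 peroxidases, Gpx4 made up 52.9 ± 4.95% in KO and 46.9 ± 4.19% in libraries labelled WT, and Gpx3 29.9 ± 6.70% and 37.0 ± 4.69%.

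Peroxiredoxins, thiol peroxidases recycled mostly by thioredoxin, held 3 of the 6 genes with an unadjusted p under 0.05 in either direction, and Srxn1, which repairs them, was another. Prdx5, sent to mitochondria, peroxisomes and cytosol, had 138, 187, 155 and 139 FPKM in KO and 121, 129.8, 115 and 136 FPKM in libraries labelled WT. All libraries labelled KO were above all libraries labelled WT, with KO replicates 1 and 4 close to WT replicate 4 (log2 fold change 0.29, SE 0.11, adjusted p = 0.424). Prdx5 overlaps Trmt112 on the other strand, and since the strand setting of the processing is not given, reads of the pair cannot be told apart; Trmt112 itself stood at 57.5 ± 1.48 FPKM in KO and 56.8 ± 4.03 FPKM in libraries labelled WT.

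Prdx6, the cytosolic enzyme that also has phospholipase activity, had 83.0, 103, 97.5 and 91.9 FPKM in KO and 82.0, 81.6, 73.0 and 78.4 FPKM in libraries labelled WT. The groups did not overlap, though KO replicate 1 exceeded WT replicate 1 by little (0.25, SE 0.08, adjusted p = 0.367). Prdx2, cytosolic and abundant in red cells, had 91.1, 144, 119.9 and 124 FPKM in KO and 101, 92.6, 98.1 and 89.9 FPKM in libraries labelled WT. KO replicates 2 to 4 were above all libraries labelled WT while KO replicate 1, the library with the most erythroid marker FPKM, lay among them (0.31, SE 0.13, adjusted p = 0.454). The fold change of Prdx2 without KO replicate 1 was 0.43 (adjusted p = 0.0692).

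Prdx1, the other abundant cytosolic peroxiredoxin, had 144, 163.5, 151 and 162 FPKM in KO and 160.1, 153, 153 and 129 FPKM in libraries labelled WT (0.06, SE 0.08, adjusted p = 0.836). KO replicates 2 and 4 lay above every library labelled WT and WT replicate 4 below every library labelled KO, with the others overlapping. Prdx3, confined to the mitochondrial matrix, had 190.1, 195, 191 and 193.3 FPKM in KO and 170.1, 196, 175 and 172 FPKM in libraries labelled WT. Its KO values had the smallest coefficient of variation of any of the 39 genes in that group, 1.28%, and were exceeded by WT replicate 2 alone (0.11, SE 0.07, adjusted p = 0.598). Prdx4, of the endoplasmic reticulum, was the least abundant at 13.7 ± 2.87 FPKM in KO and 11.5 ± 0.841 FPKM in libraries labelled WT. Srxn1, the sulfiredoxin that reactivates overoxidized peroxiredoxins, had 13.4, 13.4, 13.8 and 12.8 FPKM in KO and 15.6, 15.3, 17.6 and 14.6 FPKM in libraries labelled WT. All libraries labelled KO lay below all libraries labelled WT, by a log2 fold change of -0.23 (SE 0.07, unadjusted p = 0.0122, adjusted p = 0.357). KO replicate 1 lay with the other libraries labelled KO in Srxn1, and the fold change without it was -0.23.

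**Figure D3:**
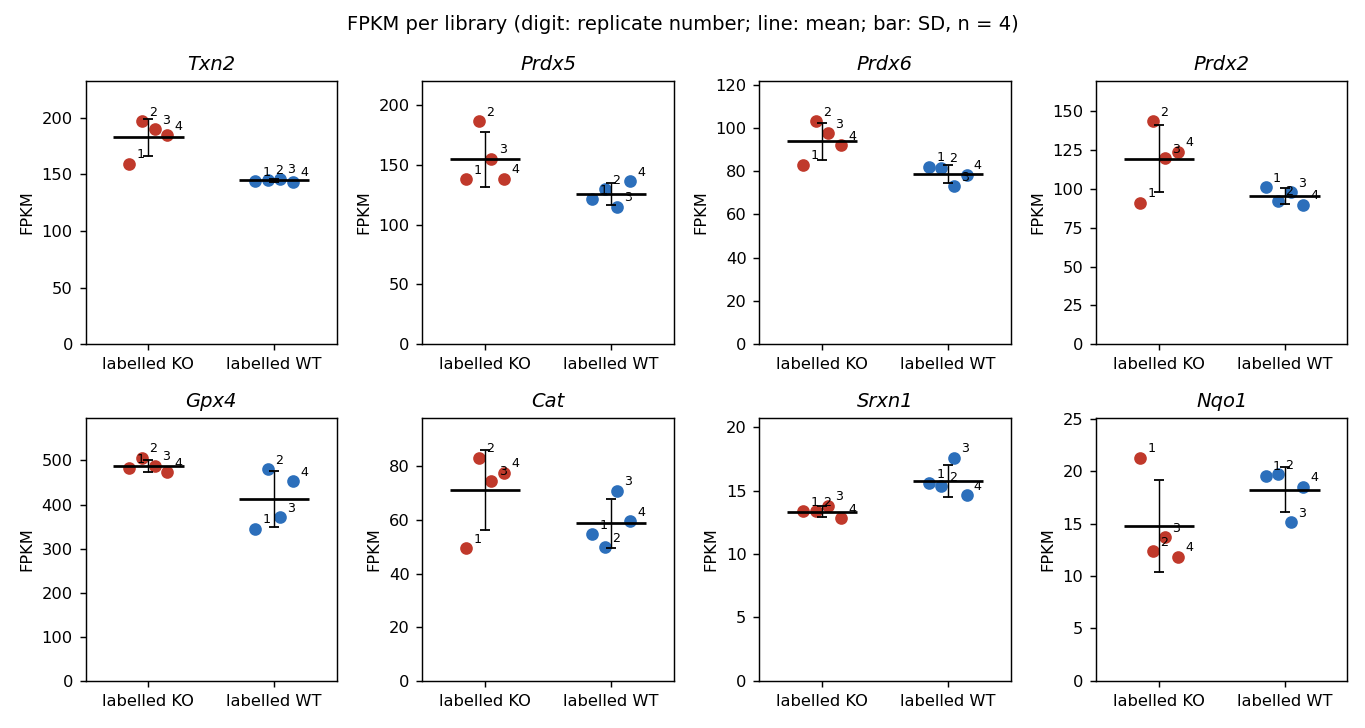
FPKM per library (digit: replicate number; line and bar: mean and SD, n = 4) for 8 genes, KO left and WT right. Txn2, Prdx5, Prdx6 and Srxn1 do not overlap between the groups, whereas in Prdx2, Cat and Nqo1 KO replicate 1 lies on the other side of the WT mean from KO replicates 2 to 4.

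Txn2, the thioredoxin of mitochondria that hands electrons to Prdx3 and Prdx5, had the smallest p-value of the set. The gene (ENSMUSG00000005354) lies on the minus strand of chromosome 15 at 77915047 to 77929006 of mm10, in GENCODE M21, and no annotated gene overlaps it on the other strand. It had 159, 197, 189.7 and 184 FPKM in KO replicates 1 to 4, against 144, 145, 146 and 144 FPKM in WT replicates 1 to 4. Libraries labelled WT were nearly identical, with a coefficient of variation of 0.827%, and every library labelled KO was above them. The means were 183 ± 16.4 FPKM in KO and 145 ± 1.20 FPKM in libraries labelled WT (SD, n = 4 each). In the limma fit this was a log2 difference of 0.33 (SE 0.08, adjusted p = 0.336). Without KO replicate 1, the lowest library labelled KO in this gene, the fold change was 0.39 and the limma adjusted p 0.0239, which is no separate evidence. Over the other alternatives the fold change stayed above 0 and was lowest, at 0.12, after rescaling to an equal sum of named genes.

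The cytosolic partner Txn1 had 103, 95.3, 101 and 98.6 FPKM in KO and 86.9, 99.1, 102 and 106 FPKM in libraries labelled WT, with KO inside the WT range (0.02, SE 0.07, adjusted p = 0.962). Thioredoxin reductases, selenoenzymes that recharge thioredoxin from NADPH, differed in sign. Txnrd2, the mitochondrial one, had 17.1, 14.8, 14.3 and 12.9 FPKM in KO and 10.51, 14.8, 11.2 and 13.9 FPKM in libraries labelled WT (0.23, SE 0.13, adjusted p = 0.591). Txnrd1, the cytosolic one, had 32.8, 28.9, 35.7 and 30.3 FPKM in KO and 35.5, 33.3, 37.0 and 33.0 FPKM in libraries labelled WT (-0.12, SE 0.08, adjusted p = 0.663). Both overlapped between the groups. Txnrd1 has a second entry in the tables, not used here for its lower mean, at 24.9 FPKM in KO and 24.5 FPKM in libraries labelled WT. Txnip had 284 FPKM in KO replicate 1 and 426 to 508 FPKM in the other libraries labelled KO, against 361 to 475 FPKM in libraries labelled WT (-0.11, adjusted p = 0.859; 0.06 without KO replicate 1). Msra, which reduces oxidized methionine, stood at 18.4 ± 1.43 FPKM in KO and 16.7 ± 1.75 FPKM in libraries labelled WT (0.14, adjusted p = 0.667); it was the 1 gene of the set on chromosome 14, which also carries Mss51.

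The promoters of mitochondrial and cytosolic members were compared because NRF2 acts through the antioxidant response element, and nuclear respiratory factor 1 on many genes of mitochondrial proteins. RefSeq windows of 300 bases (250 before to 50 after the start, build GRCm38.p6, the mm10 assembly) were at hand for 32 of the 39 genes. The core TGACNNNGC, searched on both strands, was present in a window of 7 of these 32 genes (21.9%), against 14.0% of 27025 genes with a window. It was present in 5 of 13 cytosolic genes (Sod1, Prdx1, Txnrd1, Gclm and Srxn1) and in 0 of 6 mitochondrial ones; Nfe2l2 itself and Mgst1 also had it. In Srxn1 the match began 29 bases after the start. The 5 cytosolic genes with the core had log2 fold changes from -0.23 (Srxn1) to 0.09 (Gclm). The core of the nuclear respiratory factor 1 motif was present in 2 of the 32 genes (6.25%), Gpx4 and Gss, against 5.19% of all genes, and in 0 of 6 mitochondrial ones. The absence of a match says only that these letters are not in these windows. Printed here are the 250 bases before the start, 5′ to 3′ on the gene's strand, for the mitochondrial genes Txn2 (the smallest p) and Prdx3, which hold neither core, for the cytosolic Prdx1 and Txnrd1, where capitals mark the antioxidant core, and for Gpx4, where capitals mark the core of nuclear respiratory factor 1. All marked matches are on the minus strand of the window as printed. Txnrd1 has 3 windows and Gpx4 has 4, at different starts. For each a window with a match is printed, and some of the others hold neither core.
Txn2 (chr15:77928995-77929244, minus strand): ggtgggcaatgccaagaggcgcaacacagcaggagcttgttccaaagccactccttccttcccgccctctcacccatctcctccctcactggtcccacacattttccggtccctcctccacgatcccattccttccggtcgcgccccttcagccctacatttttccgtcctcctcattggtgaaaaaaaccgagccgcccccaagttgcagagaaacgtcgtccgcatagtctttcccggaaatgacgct
Prdx3 (chr19:60874539-60874788, minus strand): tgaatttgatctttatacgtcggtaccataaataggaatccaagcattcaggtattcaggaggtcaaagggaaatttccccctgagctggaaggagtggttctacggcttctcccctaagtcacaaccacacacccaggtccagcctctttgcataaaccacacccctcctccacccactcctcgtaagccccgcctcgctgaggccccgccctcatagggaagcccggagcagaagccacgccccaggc
Prdx1 (chr4:116685349-116685598, plus strand): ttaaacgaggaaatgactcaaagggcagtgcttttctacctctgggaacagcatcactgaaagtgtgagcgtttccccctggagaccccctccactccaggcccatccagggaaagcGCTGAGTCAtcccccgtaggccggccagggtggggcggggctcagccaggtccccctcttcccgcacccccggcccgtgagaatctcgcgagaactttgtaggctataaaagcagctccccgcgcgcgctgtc
Txnrd1 (chr10:82858956-82859205, plus strand): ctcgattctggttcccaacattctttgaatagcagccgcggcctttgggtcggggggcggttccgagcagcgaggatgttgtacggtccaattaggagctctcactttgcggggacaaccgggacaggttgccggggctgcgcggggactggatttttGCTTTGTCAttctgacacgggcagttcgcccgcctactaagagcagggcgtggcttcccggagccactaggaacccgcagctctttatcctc
Gpx4 (chr10:80053315-80053564, plus strand): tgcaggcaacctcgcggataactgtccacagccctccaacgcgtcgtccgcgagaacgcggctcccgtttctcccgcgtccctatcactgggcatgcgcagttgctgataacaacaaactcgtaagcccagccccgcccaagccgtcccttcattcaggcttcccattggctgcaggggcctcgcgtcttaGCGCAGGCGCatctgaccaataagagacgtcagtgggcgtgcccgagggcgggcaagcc

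Glutaredoxins, which reduce proteins joined to glutathione or carry iron-sulfur clusters, did not separate the groups. Glrx, the cytosolic form, had 38.3, 43.9, 33.9 and 38.0 FPKM in KO and 40.0, 41.2, 41.2 and 32.6 FPKM in libraries labelled WT (-0.01, SE 0.10, adjusted p = 0.988). Glrx2, the mitochondrial form, had 27.0, 22.7, 25.8 and 21.3 FPKM in KO and 19.4, 23.6, 17.96 and 27.0 FPKM in libraries labelled WT (0.15, SE 0.14, adjusted p = 0.757). Its WT values spread most, with replicates 2 and 4 within or at the top of the KO range. The mitochondrial cluster carrier Glrx5 stood at 97.9 ± 9.50 FPKM in KO and 86.5 ± 5.17 FPKM in libraries labelled WT (0.17, adjusted p = 0.529), and the cytosolic Glrx3 at 74.7 ± 9.20 and 70.8 ± 4.19 FPKM (0.07, adjusted p = 0.834). Among the genes of glutathione supply, Gsr, the reductase, stood at 0.15 (adjusted p = 0.727), and Gclc and Gclm, the catalytic and modifier subunits of the first synthetic step, at -0.15 (adjusted p = 0.727) and 0.09 (adjusted p = 0.834). Gss stood at 0.04 (adjusted p = 0.934); it overlaps Acss2 on the other strand, which had a fold change of 0.37 (adjusted p = 0.353).

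Glutathione transferases, which conjugate glutathione to electrophiles such as lipid peroxidation products, pointed in different directions. Gstm1 ran from 96.1 to 131 FPKM in KO and from 119 to 145 FPKM in libraries labelled WT (log2 fold change -0.20, adjusted p = 0.541). KO replicates 2 to 4 lay below all libraries labelled WT and KO replicate 1 among them, and without it the fold change was -0.28 (adjusted p = 0.237). Gsta4, specialised in hydroxynonenal, ran from 18.6 to 22.5 FPKM in KO and from 14.4 to 21.4 FPKM in libraries labelled WT (0.24, adjusted p = 0.588). Gstp1 stood at -0.05 (adjusted p = 0.892); its neighbour Gstp2, 98.2% identical over 707 aligned bases and listed at 46.6% of its FPKM, may share its reads. The membrane-bound Mgst1 and Mgst3 stood at -0.06 (adjusted p = 0.934) and 0.12 (adjusted p = 0.681).

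Nfe2l2, Keap1, Nqo1 and Hmox1 had KO means below the WT mean, none past the test. This direction was not shared by all members with the antioxidant core: the 5 cytosolic ones ran from -0.23 (Srxn1) to 0.09 (Gclm). Nfe2l2 had 27.5, 27.2, 30.96 and 30.7 FPKM in KO and 32.4, 28.2, 33.4 and 29.0 FPKM in libraries labelled WT (-0.08, SE 0.08, adjusted p = 0.790). Keap1 had 35.5, 30.9, 32.2 and 30.5 FPKM in KO and 31.1, 35.2, 34.0 and 35.1 FPKM in libraries labelled WT (-0.07, SE 0.07, adjusted p = 0.797). In both genes the groups overlapped. Nqo1, the quinone reductase and a textbook NRF2 target, had 21.3, 12.4, 13.7 and 11.8 FPKM in KO and 19.6, 19.7, 15.1 and 18.5 FPKM in libraries labelled WT. KO replicate 1 was the highest of the 8 libraries and KO replicates 2 to 4 the lowest 3; the fold change was the most negative of the set at -0.32 (SE 0.18, adjusted p = 0.579), and -0.51 without KO replicate 1 (adjusted p = 0.0927). Hmox1, the inducible heme oxygenase, stood at 7.64 ± 1.42 FPKM in KO and 8.53 ± 0.774 FPKM in libraries labelled WT (-0.16, adjusted p = 0.727).

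By compartment, all 6 mitochondrial members had a log2 fold change above 0 (0.11 to 0.33, median 0.16), as had all 6 found in several compartments (median 0.23), against 8 of 15 cytosolic ones (median 0.02), 5 of 9 of the endoplasmic reticulum, membranes, peroxisome or outside the cell (median 0.00) and 0 of 3 regulators, Nfe2l2, Keap1 and Txnip (median -0.08). No member of any of these groups passed the test. The mean deviation of the mitochondrial members from the WT mean was 0.12 to 0.22 in libraries labelled KO and -0.07 to 0.07 in libraries labelled WT; for the cytosolic members it was -0.06 to 0.02 in KO and -0.03 to 0.01 in libraries labelled WT. KO replicate 1 lay with the other libraries labelled KO in the mitochondrial mean, at 0.22. After rescaling to an equal sum of named genes the medians were -0.05 for mitochondrial and -0.20 for cytosolic members, beside -0.18 for all genes. In bulk tissue, fewer cells of a type and less RNA per cell cannot be told apart.

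**Figure D4:**
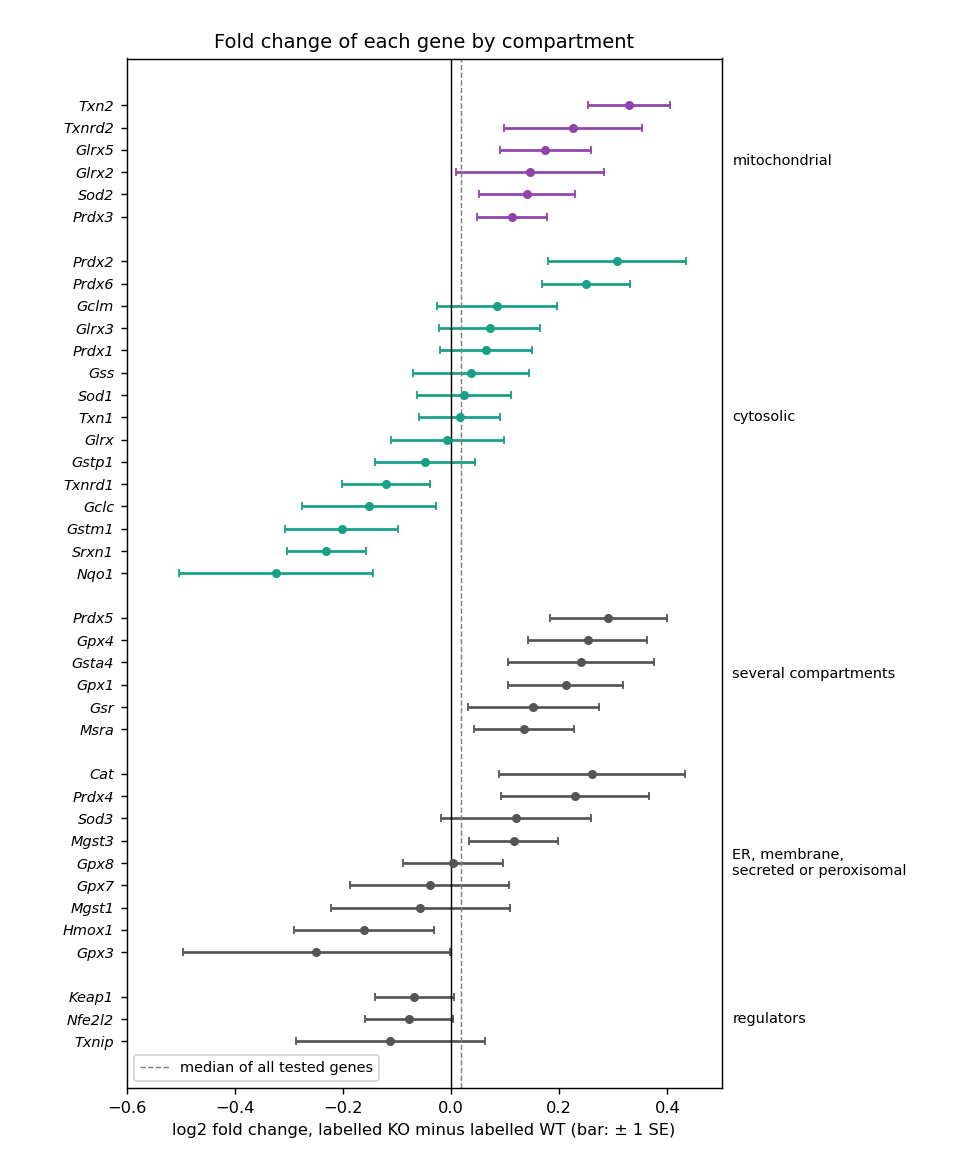
Log2 fold change of each gene, KO minus WT, with a bar of ± 1 SE, grouped by compartment; the dashed line is the median of all tested genes (0.02). The 6 mitochondrial members and the 6 of several compartments lie right of 0, while the cytosolic ones spread from -0.32 (Nqo1) to 0.31 (Prdx2).

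Ratios of a mitochondrial to a cytosolic isoenzyme within a library, which do not depend on how libraries are scaled, were compared between the labels. For Txn2 over Txn1 the ratio of FPKM was 1.55, 2.07, 1.88 and 1.87 in KO replicates 1 to 4 and 1.66, 1.47, 1.44 and 1.35 in WT replicates 1 to 4. KO replicates 2 to 4 exceeded every library labelled WT and KO replicate 1 did not. The difference of the log2 ratio was 0.31 (SE 0.11; exact permutation p = 0.0571, two-sided over 70 assignments, with 0.0286 the smallest possible; adjusted p = 0.286 over the 5 pairs compared). For Txnrd2 over Txnrd1 the ratio was 0.5198, 0.512, 0.400 and 0.428 in KO and 0.296, 0.445, 0.303 and 0.423 in libraries labelled WT, a difference of 0.35 (SE 0.18, exact p = 0.143, adjusted p = 0.357). In the other 3 pairs the difference was 0.12 for Sod2 over Sod1 (exact p = 0.457), 0.05 for Prdx3 over Prdx1 (exact p = 0.600) and 0.15 for Glrx2 over Glrx (exact p = 0.571), each with an adjusted p of 0.600. All 5 differences were above 0 and none passed, but a single pair that separated the groups completely would have had an adjusted p of 0.143, so no lone pair could pass. Prdx3 over Prdx1 and Txn2 over Txn1 were above 1 in all 8 libraries, while the other 3 ratios were below 1 in all 8.

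**Figure D5:**
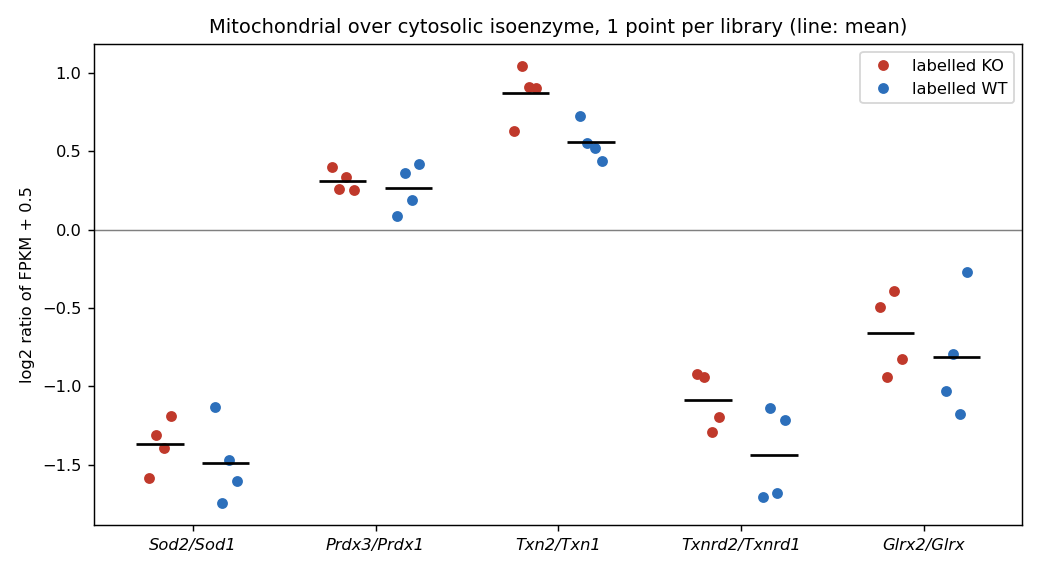
Log2 ratio of FPKM + 0.5 of a mitochondrial over a cytosolic isoenzyme for 5 pairs, 1 point per library (KO left, WT right; line: mean). The KO mean is above the WT mean in each pair, by 0.05 to 0.35, and the points overlap in all 5.

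The genes around these enzymes were given by lists chosen beside the 39. Of 15 genes that supply NADPH, 7 had a positive log2 fold change (median -0.00), 0 passed and 3 had an unadjusted p under 0.05, all higher. Of all tested genes, 7.5% had such a p and were higher, and 2.76% lower. Nnt, the transhydrogenase that makes NADPH in mitochondria, had 11.7, 30.4, 32.2 and 35.4 FPKM in KO and 16.2, 10.1, 15.98 and 13.4 FPKM in libraries labelled WT (0.86, adjusted p = 0.431). KO replicates 2 to 4 stood at about the same high level and KO replicate 1 within the WT range. Idh2, the NADP-dependent isocitrate dehydrogenase of mitochondria, showed the same split, with 148, 287, 365 and 351 FPKM in KO and 164, 133, 153 and 149 FPKM in libraries labelled WT (0.86, adjusted p = 0.353). Without KO replicate 1 both passed, Nnt at 1.22 (adjusted p = 0.0145) and Idh2 at 1.15 (adjusted p = 0.00573). In that fit 0.942% of all genes were called higher, against 0.0505% with all libraries. Leaving out the library that is low in both genes raises their fold change, so these passes are no separate evidence. The cytosolic Idh1 stood at 0.21 (adjusted p = 0.454).

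Of 13 further glutathione transferases tested, 7 were above 0 (median 0.06), 0 passed and 4 had an unadjusted p under 0.05, all higher. Gsto1 had 32.1, 42.0, 41.0 and 36.6 FPKM in KO and 26.4, 30.1, 27.4 and 30.3 FPKM in libraries labelled WT, without overlap (0.40, adjusted p = 0.347; 0.47 and adjusted p = 0.0483 without KO replicate 1). Gstm7 stood at 0.75 (adjusted p = 0.408) and Gstt3, joined with Ddt and Gm20441 at 1 locus, at 0.68 (adjusted p = 0.347). Both passed without KO replicate 1, Gstm7 at 1.04 (adjusted p = 0.0146) and Gstt3 at 0.85 (adjusted p = 0.0125), in the fit where 0.942% of all genes were called higher. KO replicate 1 was the lowest library labelled KO in Gsto1, Gstm7 and Gstt3. Leaving it out raises their fold change, so these passes are no separate evidence. Among 23 other thiol and selenium antioxidants, 15 were above 0 (median 0.06) and 0 passed. An unadjusted p under 0.05 was found for 2 higher and 1 lower. Nxn, the thioredoxin-like nucleoredoxin, had 24.9, 26.9, 24.6 and 26.9 FPKM in KO and 18.8, 18.3, 22.1 and 19.9 FPKM in libraries labelled WT, again without overlap (0.38, adjusted p = 0.308). Ccs, which loads copper into SOD1, stood at 0.33 (adjusted p = 0.454) and the methionine sulfoxide reductase Msrb3 at -0.27 (adjusted p = 0.424).

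Of 21 other genes of the NRF2 pathway tested, 9 were above 0 (median -0.05), and 0 passed in either direction. An unadjusted p under 0.05 was found for 2 higher and 1 lower. Aox1 (0.33, adjusted p = 0.372) and Cbr1 (0.24, adjusted p = 0.426), both reported NRF2 targets, lay opposite to Bach1, a repressor at the same elements (-0.23, adjusted p = 0.432). Of 14 sources of superoxide and peroxide tested, 8 were above 0 (median 0.03), 0 passed and 1 had an unadjusted p under 0.05, lower in KO. Ero1l, the oxidase that makes peroxide as proteins fold in the endoplasmic reticulum, had 1.963, 2.38, 2.00 and 2.78 FPKM in KO and 4.36, 2.86, 3.87 and 3.46 FPKM in libraries labelled WT, without overlap (-0.57, adjusted p = 0.347). Xdh stood at 0.23 (adjusted p = 0.654) and Duoxa1 at 0.30 (adjusted p = 0.727).

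Markers of other cells differed between libraries in ways that ran beside some of these values. Of 11 markers of oxidative fibres, slow and fast, 10 were above 0 (median 0.56). Their deviation from the WT mean was -0.04 in KO replicate 1 and 0.73 to 0.88 in KO replicates 2 to 4. The 1 marker below 0 was the slow myosin Myh7, joined with Myh6, at -0.09 (limma adjusted p = 0.905). Mb, the oxygen store of oxidative fibres, had 1838, 4704, 3645 and 4010 FPKM in KO and 1624 to 1937 FPKM in libraries labelled WT. KO replicate 1 was the lowest of the libraries labelled KO in Mb and, among genes picked after their values were seen, in Txn2, Prdx2, Cat, Idh2 and Nnt, and the highest in Nqo1. Over the 39 antioxidant genes it was the lowest of the 4 in 14 and the highest in 12. The part of fibre type in these values was not tested. All 5 erythroid markers tested were above 0 (median 0.91, and 0.54 without KO replicate 1). Summed adipocyte markers ran from 679 to 979 FPKM in KO and 654 to 932 FPKM in libraries labelled WT, with 2 of 8 above 0 and a median log2 fold change of -0.41. An unadjusted p under 0.05 was found for 3 of the 8, all lower in KO (2.76% of all tested genes), namely Lep (-1.59), Plin1 (-0.73) and Adipoq (-0.51). Macrophage markers summed to 331 to 495 FPKM in KO and 295 to 417 FPKM in libraries labelled WT, with 7 of 10 above 0. An unadjusted limma p under 0.05 was found for 1 of them, Vsig4, higher in KO (7.5% of all tested genes). Vsig4 had 2.38 ± 0.403 FPKM in KO and 1.05 ± 0.0961 FPKM in libraries labelled WT, without overlap (0.89, adjusted p = 0.184). Fibroblast markers (745 to 1123 FPKM in KO, 944 to 1069 FPKM in WT; 1 of 8 above 0), endothelial markers (89.9 to 164 FPKM in KO, 99.6 to 127 FPKM in WT; 6 of 8) and smooth muscle markers (87.5 to 105 FPKM in KO, 93.2 to 106 FPKM in WT; 1 of 5) overlapped in their sums between the groups. Among the smooth muscle markers, Acta2 (-0.35, adjusted p = 0.424) and Smtn (0.29, adjusted p = 0.450) had an unadjusted limma p under 0.05, in opposite directions. None of the cell markers passed the test with all 8 libraries. Without KO replicate 1, 5 of the 11 oxidative fibre markers were called higher, beside 0.942% of all genes. They were Myh2, a myosin of fast oxidative fibres (1.78, adjusted p = 0.00573), Mb (1.24, adjusted p = 0.00573), Myl2 (1.44, adjusted p = 0.0191), Casq2 (1.40, adjusted p = 0.0295) and Pln (1.04, adjusted p = 0.0442). Myh7 was not called, at -0.04. KO replicate 1 had been set apart by these same markers, so the calls are no separate evidence. In that fit the adipocyte marker Lep was called lower (-2.05, adjusted p = 0.00936), beside 0.101% of all genes. No defining marker of the erythroid, adipocyte, macrophage, fibroblast, endothelial or smooth muscle lists was listed at 0 in any library.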

How the data were processed

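RNA-seq of quadriceps from 8 mice was deposited as 1 table per mouse with a gene name, a locus and an FPKM value, per the file headers. The authors deposited FPKM (fragments mapped to a gene, scaled to its length and to the library) and no counts. The tools FastQC, TopHat2 2.1.1, Bowtie2 2.2.6 and Cufflinks 2.2.1 and the build mm10 are named per the submitters' processing notes; the annotation, strand setting and filters are not given in the sources used here. The depth in the files is unknown.

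Of repeated names the entry with the higher mean was kept, and genes with a mean FPKM of at least 1 were tested: 11878 genes, with limma 3.58.1 in R 4.3.3 (trend) on log2(FPKM + 0.5), no covariate, and Benjamini-Hochberg adjustment over all of them. A fold change is on that scale and understates changes of low genes. Isoenzyme ratios were compared by exact permutation of the 8 libraries. Near-identical copies were sought with BLAST 2.17.0 among GENCODE M21 transcripts; other steps used Python 3.11.15. Scripts were tested on simulated data. Promoter sequences are from RefSeq.

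Named in full were genes with an unadjusted p under 0.05, the isoenzyme pairs, Nfe2l2, Keap1 and the largest changes in each direction; other members were described by role, and Cat, Hmox1, Gpx3 and Gstm1 in more detail after their values were seen. The members and lists were chosen with earlier results of these data known.

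The same replicate numbers occur in both groups; correlations of deviations for same-numbered libraries were -0.01, -0.08, -0.08 and 0.01, so the numbers were not taken to pair mice.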

Additional observations from a re-analysis of the deposited data

Results flagged for a closer look

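Of 88 groups of 4 libraries examined, 2 had a library set apart from the other 3 by a gap above Dixon's 95% limit, which chance passes in about 1 in 20 groups. In Txnip, WT replicate 2 had 361 FPKM while the other libraries labelled WT had 459 to 475 FPKM, a gap of 0.862 of the range. In Glrx, WT replicate 4 had 32.6 FPKM while the others had 40.0 to 41.2 FPKM, a gap of 0.854 of the range.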

How the results depend on the processing

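Of all genes, 6 were called higher and 0 lower in KO. Rescaling to an equal sum of named genes gave 63 higher and 60 lower, and the replicate block 0 higher; a minimum of 5 FPKM, robust empirical Bayes, array weights and leaving out genes listed at 0 each gave 1 lower. Leaving out 1 library gave 4 (without WT replicate 2) to 112 (without KO replicate 1) higher and 0 to 12 lower. Members called higher numbered 0 to 1 on leaving out 1 library: without KO replicate 1, Txn2 passed at 0.39 (range 0.29 to 0.39). Members with an unadjusted p under 0.05 numbered 5 higher and 1 lower; rescaling gave 0 and 0, quantile normalization 2 and 2, the replicate block 3 higher, and leaving out 1 library 2 (without KO replicate 2) to 7 higher and 1 to 3 (without KO replicate 1) lower. With the replicate block, the exact sign-flip p of the ratios was 0.625 for Sod2 over Sod1, 0.750 for Prdx3 over Prdx1, 0.250 for Txn2 over Txn1, 0.125 for Txnrd2 over Txnrd1 and 0.750 for Glrx2 over Glrx. The smallest p this test can give is 0.125, so it could call none. The numbers were not taken to pair the mice, and beyond the counts given above the block changed no call.

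The median log2 fold change of the 39 was -0.14 after rescaling and 0.018 after quantile normalization (0.033 without WT replicate 1 to 0.096 without WT replicate 4); that of mitochondrial members was -0.051 after rescaling (0.14 to 0.23 leaving out 1 library), and that of cytosolic members -0.20 and -0.045 (-0.039 to 0.027). The ratio Prdx3 over Prdx1 ran from -0.010 (without WT replicate 1) to 0.10. Rescaling moved the median of all genes by -0.19 and each of the 39 by -0.21 to -0.18, a shared shift that took small positive values below 0 and says nothing of single genes: Sod1 (-0.19), Sod2 (-0.073), Sod3 (-0.083), Gpx1 (-0.0016), Gpx8 (-0.20), Prdx1 (-0.15), Prdx3 (-0.10), Txn1 (-0.20), Glrx2 (-0.063), Glrx3 (-0.14), Glrx5 (-0.039), Gsr (-0.056), Gclm (-0.12), Gss (-0.15), Mgst3 (-0.098) and Msra (-0.072). Quantile normalization turned Sod1 (-0.11), Gpx8 (-0.022), Prdx1 (-0.037) and Txn1 (-0.037), scaling by the median Gpx8 (-0.018) and Txn1 (-0.0063), and array weights Gpx8 (-0.017) and Glrx (0.0021). Leaving out 1 library turned Sod1 (-0.039 to 0.084), Gpx7 (-0.18 to 0.060), Gpx8 (-0.037 to 0.062), Prdx1 (-0.0029 to 0.10), Txn1 (-0.043 to 0.053), Txnip (-0.22 to 0.056), Glrx (-0.087 to 0.051), Glrx3 (-0.0090 to 0.12), Gclm (-0.019 to 0.14), Gss (-0.034 to 0.10) and Mgst1 (-0.19 to 0.042). The cause was not tested. With no counts, depth sets no interval here.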
